A study of Saccharomyces cerevisiae with 22 samples.

Results

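The thiamine synthesis genes examined here are THI2, THI3, THI4, THI6, THI20, THI21, THI22 and THI80, 8 of the 6002 nuclear protein-coding genes of the R64 annotation of Saccharomyces cerevisiae. They were taken by name, and all 8 were matched. Each gene was represented by the 1 kb upstream of its start codon, and the measurement was the number of distinct insertion sites of the retrotransposon Ty5 in that window in each of 22 calling-card libraries. In a calling-card experiment a DNA-binding protein is fused to a piece of the silencing protein Sir4, which tethers Ty5 integrase, so that Ty5 integrates near the DNA where the fusion sits. The question addressed is whether the fusion of Thi2, the thiamine gene activator, sends Ty5 to these promoters, and whether it does so in thiamine-starved cells more than in complete medium.

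Yeast makes thiamine by joining a thiazole and a pyrimidine ring that are made separately, and then adds a pyrophosphate group to give thiamine pyrophosphate, the cofactor of pyruvate decarboxylase and related enzymes. When thiamine is scarce the genes of this route are switched on by the regulators Thi2, Thi3 and Pdc2. Thi3 resembles a decarboxylase and binds thiamine pyrophosphate, which makes it the sensor of the system, and Thi2 is a zinc-cluster protein that works with it.

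The 2 Thi2 libraries came from a MATa haploid in which sir4 was joined to THI2 at its own locus (THI2::sir4), with trp1::Hyg, sir4::KanMX, met15∆0, ura3∆0, leu2∆0 and his3∆1. One was grown in complete medium and the other without thiamine, with 1 library each. The comparison library was a diploid without any Sir4, homozygous for sir4::KanMX, trp1::Hyg, ura3∆0, leu2∆0 and his3∆1 and heterozygous for met15∆0 and lys2∆0. The same diploid carried Gal4, Leu3 or Gcn4 fused to Sir4 and overexpressed from a plasmid (1 library each), or 1 of 8 barcoded fusions (Gal4, Kar4, Lee1, Rgm1, Rpi1, Sef1, Sfg1 and Yrm1) that were profiled in a common pool, with 2 pools as biological replicates. By the labels the chromosomal SIR4 was thus deleted in every strain. Cells grew with either glucose or galactose, and the sugar of each library was not known here. Ploidy, auxotrophies and the fusion all differ between the Thi2 strain and the Sir4-free diploid, and their parts in a difference cannot be told apart.

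Reads that share their chromosome, position and direction count as 1 site. Libraries ranged from 4755 to 79573 sites, with 9171 in the starved Thi2 library, 27883 in the complete-medium one and 79573 in the Sir4-free one. Inside the SIR4 coding sequence, less 100 bp at each end, the Sir4-free library listed 0 sites, the complete-medium Thi2 library 5, the starved one 2 and the other 19 together 9. Of these 16 sites 15 lay 2920 to 3582 bp into the 4077 bp of the gene, and 1, with 1 read, lay in an earlier stretch in the starved library. The fusions carry Sir4 sequence elsewhere in the genome or on a plasmid, and sites in that copy cannot be told apart from sites in the chromosomal gene. The genome build of the deposited positions is not named. Near the 8 genes the shift of the annotation that left the fewest sites inside coding sequences was 10 to 50 bp, but it lowered that share only from 34.1% to 32.4% near THI80 and by less near the other genes. Distances from a start codon may therefore be off by such a shift, and positions are given below as the files number them. The 95% Clopper-Pearson intervals given in brackets cover counting error only, since PCR reads without molecular identifiers are not independent molecules. No replicate exists for the Thi2, plasmid and Sir4-free libraries, so their two-sided Fisher's exact tests compare libraries and not conditions. Adjusted p values are Benjamini-Hochberg values over all windows tested, and a window was called at an adjusted p under 0.05.

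The upstream windows of the thiamine synthesis genes together held a larger share of sites in the starved Thi2 library than in the other two. The 8 windows held 88 sites, 0.960% of the library (0.770 to 1.18), against 51 sites or 0.183% (0.136 to 0.240) in complete medium and 78 sites or 0.0980% (0.0775 to 0.122) without Sir4. THI4, THI20 and THI3 were called higher in the starved than in the complete-medium library, 3 of 8 tested, where 0.315% of all 2537 tested windows were called higher and 0 were called lower. Of the 8 genes 6 had an unadjusted p under 0.05, as had 145 of all tested windows. The log2 ratio of shares, starved over complete, was above 0 for all 8 genes with a median of 2.43, against a median of 0.02 over all windows, of which 50.8% were above 0. No gene of the 8 was called lower. A window was tested if the 2 libraries together held at least 5 sites. THI3 (9 starved and 2 complete-medium sites), THI22 (6 and 1) and THI80 (5 and 4) reached this only with their starved sites. The counts and the median above include these genes and are a description. The 8 windows called in all held 2.76% of the starved sites and 0.165% of the complete-medium sites.

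**Figure D1:**
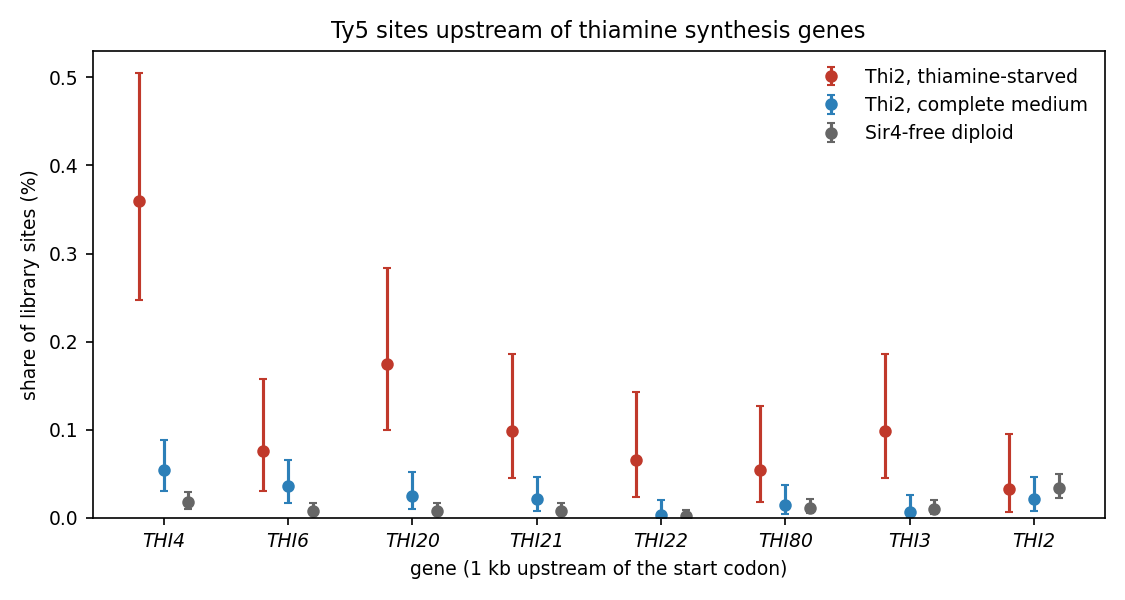
Share of a library's distinct Ty5 sites (%, vertical axis) in the 1 kb upstream of each gene (horizontal axis) in the starved Thi2, complete-medium Thi2 and Sir4-free libraries. Points are single libraries and bars are 95% Clopper-Pearson intervals. The starved share of THI4 is 0.360%. All 3 intervals overlap at THI2 and at THI80, and those of the 2 Thi2 libraries overlap also at THI6 and THI21.

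THI4 encodes the thiazole synthase, which takes the sulfur of the ring from its own cysteine. Upstream of THI4 on chromosome 7 lay 33 starved sites, 15 complete-medium sites and 14 Sir4-free sites. The shares were 0.360% (0.248 to 0.505), 0.0538% (0.0301 to 0.0887) and 0.0176% (0.00962 to 0.0295). The starved interval overlapped neither of the others. The starved share was 6.69 times that in complete medium (3.53 to 13.3; Fisher's exact test, adjusted p 1.07e-07) and 20.5 times the Sir4-free share (10.7 to 41.4; adjusted p 3.66e-19). In the former comparison it had rank 4 by p among all windows.

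The THI4 sites of the starved library lay in a narrow stretch. Of the 33 sites 28 fell 501 to 750 bp upstream, as did 3 of 15 in complete medium and 4 of 14 without Sir4. The complete-medium sites had 10 of 15 in the 251 to 500 bp stretch, where the starved library had 3. The starved sites ran from position 779738 to 780264 of chromosome 7. The median distances were 529 bp, 410 bp and 422 bp in the same order. In the starved library 25 of the 33 sites ran opposite to the gene. Because of this position, a window of 500 bp held 5 starved and 12 complete-medium sites, and THI4 was then not called against complete medium (log2 ratio 0.42, adjusted p 1.00) or against the Sir4-free library (log2 ratio 2.49, adjusted p 0.560). Many of the sites were also close neighbours. When sites of 1 direction within 5 bp of the next were merged, a choice made after seeing the data, 18 starved and 12 complete-medium sites were left, and THI4 was still called (log2 ratio 2.22, adjusted p 0.0168).

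THI6 encodes the enzyme that phosphorylates the thiazole and joins it to the pyrimidine. It had 7 starved, 10 complete-medium and 6 Sir4-free sites, or 0.0763% (0.0307 to 0.157), 0.0359% (0.0172 to 0.0659) and 0.00754% (0.00277 to 0.0164). The starved sites lay at positions 150201 to 150535 of chromosome 16, all within 500 bp of the start codon, as did all 10 complete-medium sites. The 2 Thi2 libraries overlapped, with a ratio of 2.13 (0.688 to 6.19; Fisher's exact test, adjusted p 0.898). The starved share was 10.1 times the Sir4-free share (2.91 to 36.5; adjusted p 0.0255). That call was lost with windows shifted 60 bp upstream (adjusted p 0.106), with merged sites (0.149) and without the sites that both Thi2 libraries list (0.289). The divergent gene LEA1, which encodes a splicing protein, starts within the THI6 window, and all 7 starved and all 10 complete-medium sites lie upstream of both genes, so they cannot be assigned to either one.

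THI20 and its relatives act in the pyrimidine branch. THI20 and THI21 encode kinases that phosphorylate the pyrimidine precursor, and THI20 also carries a thiaminase. THI22 encodes a protein of the same family. THI20 on chromosome 15 had 16 starved sites, 7 in complete medium and 6 without Sir4, or 0.174% (0.0998 to 0.283), 0.0251% (0.0101 to 0.0517) and 0.00754% (0.00277 to 0.0164). Its starved share stood above both others without overlap of the intervals. The ratio was 6.95 to complete medium (2.70 to 19.97; Fisher's exact test, adjusted p 0.00385) and 23.1 to the Sir4-free library (8.60 to 72.2; adjusted p 5.63e-09). The starved sites lay between positions 226095 and 226856. Of these 11 lay within 250 bp of the start codon, nearer than the THI4 stretch.

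THI21 and THI22 were called against the Sir4-free library but not against complete medium. THI21 had 9 starved, 6 complete-medium and 6 Sir4-free sites. The complete-medium share was 0.0215% (0.00790 to 0.0468). Its starved share of 0.0981% (0.0449 to 0.186) was 4.56 times that in complete medium (1.45 to 15.6; Fisher's exact test, adjusted p 0.390) and 13.0 times the Sir4-free share (4.14 to 44.4; adjusted p 0.00156). The 9 starved sites lay 190 to 553 bp upstream, at positions 55343 to 55706 of chromosome 16, and 8 of them ran in the direction of the gene. The 406 bp that the THI21 window shares with the windows of YPL257W-A and YPL257W-B, reading frames of a Ty element beyond it, held 0 starved, 3 complete-medium and 4 Sir4-free sites. THI22 had 6, 1 and 2 sites in the same order, or 0.0654% (0.0240 to 0.142), 0.00359% and 0.00251%. Its starved sites lay at positions 778134 to 778447 of chromosome 16. With a single site in complete medium its ratio of 18.2 had an interval of 2.21 to 839 (adjusted p 0.201), and against the Sir4-free library it was 26.0 (4.65 to 264; adjusted p 0.00834). The latter call was lost with merged sites, where 4 starved sites were left (adjusted p 0.273), and with at least 5 reads per site (0.0781).

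THI80 encodes thiamine pyrophosphokinase, the enzyme of the last step. It had 5 starved, 4 complete-medium and 9 Sir4-free sites, or 0.0545% (0.0177 to 0.127), 0.0143% (0.00391 to 0.0367) and 0.0113% (0.00517 to 0.0215). The intervals of all 3 libraries overlapped. The starved sites lay at positions 602510 to 602985 of chromosome 15. The ratio to complete medium was 3.80 (0.818 to 19.2; Fisher's exact test, adjusted p 0.836) and to the Sir4-free library 4.82 (1.27 to 16.02; adjusted p 0.644). Both had an unadjusted p under 0.05 and missed the adjusted threshold.

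Of the 2 regulatory genes THI3 was called in the starved library and THI2 was not, and they were not tested against each other. THI3 had 9 starved sites, 2 in complete medium and 8 without Sir4, or 0.0981% (0.0449 to 0.186), 0.00717% (0.000869 to 0.0259) and 0.0101% (0.00434 to 0.0198). Its starved share was 13.7 times that in complete medium (2.83 to 130; Fisher's exact test, adjusted p 0.0367) and 9.76 times the Sir4-free share (3.34 to 29.1; adjusted p 0.00575). Of these calls the former was near the threshold. With merged sites 7 starved sites were left and neither passed (adjusted p 0.340 and 0.0900), and with no minimum of sites the former had an adjusted p of 0.0792. The 9 starved sites lay 81 to 379 bp upstream, at positions 312552 to 312850 of chromosome 4, and the 2 complete-medium sites were both within 250 bp of the start codon.

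THI2 itself, the gene of the fused protein, had 3 starved, 6 complete-medium and 27 Sir4-free sites. The shares were 0.0327% (0.00675 to 0.0956), 0.0215% (0.00790 to 0.0468) and 0.0339% (0.0224 to 0.0494), and all 3 intervals overlapped. The ratio of starved to complete was 1.52 (0.246 to 7.12; Fisher's exact test, adjusted p 1.00), and that of starved to Sir4-free was 0.964 (0.187 to 3.13; adjusted p 1.00). Of the 27 Sir4-free sites 16 lay 251 to 500 bp upstream. The 3 starved sites lay between positions 702041 and 702526 of chromosome 2. It was the fullest of the 8 windows without Sir4 and the emptiest in the starved library.

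**Figure D2:**
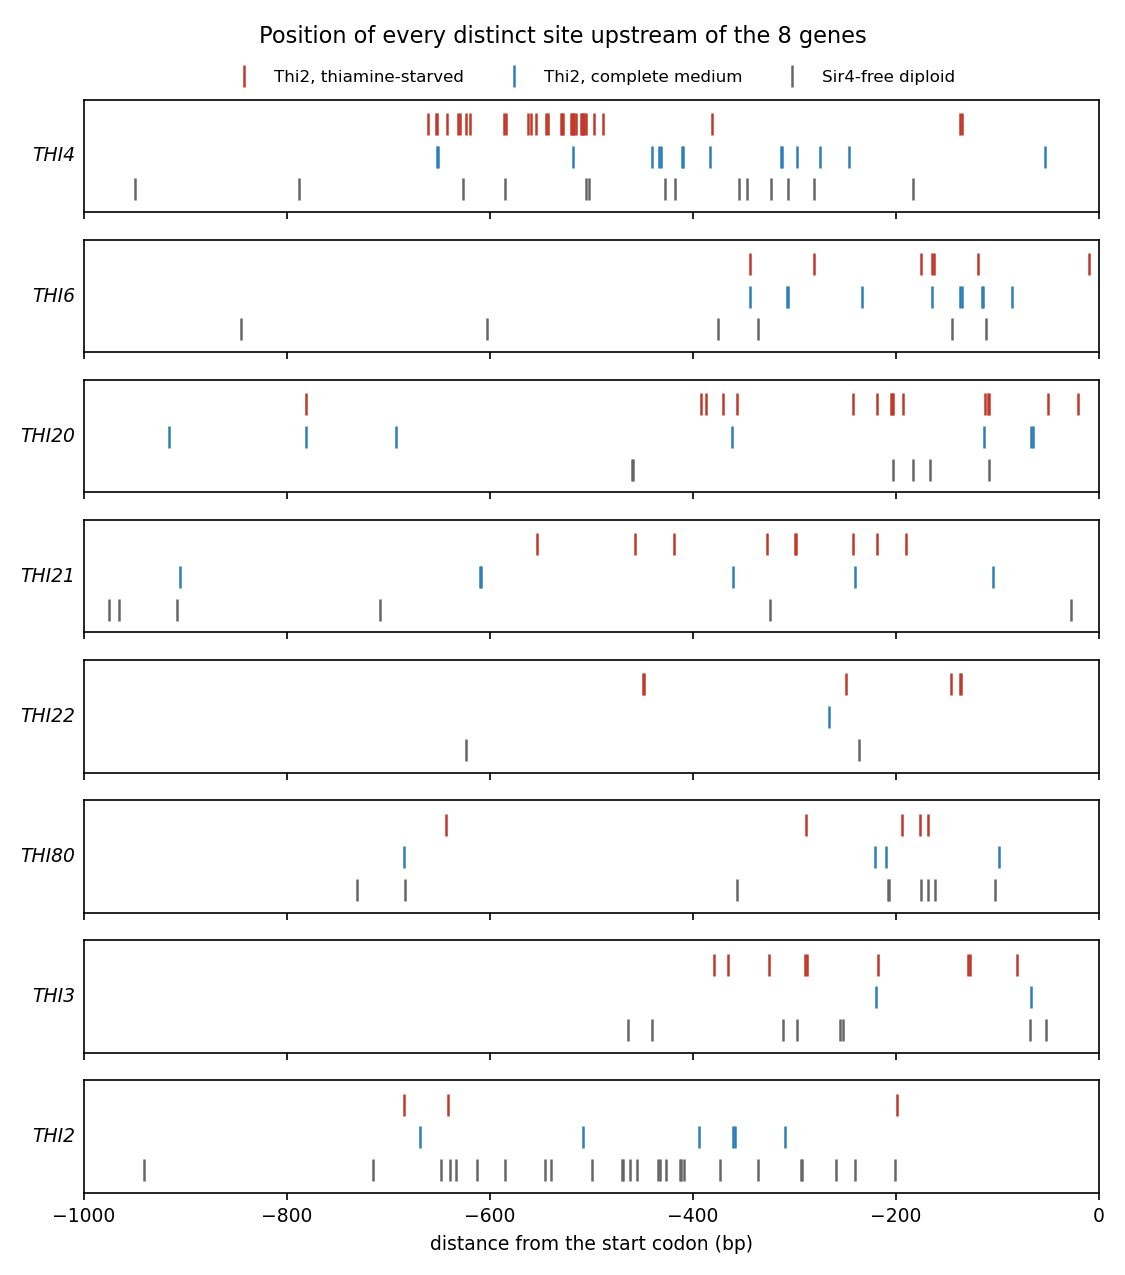
Distance of every distinct site from the start codon (bp, horizontal axis, the gene begins at 0 on the right) for the 8 genes, 1 panel each. Each tick is 1 site; upper rows are the starved Thi2 library, middle rows complete medium and lower rows the Sir4-free diploid, and 28 of the 33 starved THI4 sites stand between 501 and 750 bp.

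The starved sites were concentrated in the upstream kilobase. In the kilobase beyond it the 8 genes together had 4 starved sites, 0.0436% of the library (0.0119 to 0.112), against 16 or 0.0574% (0.0328 to 0.0932) in complete medium and 39 or 0.0490% (0.0349 to 0.0670) without Sir4. In the first kilobase into the genes the counts were 3, 13 and 31, or 0.0327%, 0.0466% and 0.0390%. Both flanks thus overlapped between the 3 libraries, where the upstream windows did not. Within the windows 62.5% of the starved sites lay in the nearer 500 bp, against 76.5% in complete medium and 69.2% without Sir4. Over all genes these figures were 61.9%, 62.3% and 63.8%. The starved figure rests largely on THI4, which held 28 of the 32 starved sites 501 to 750 bp upstream. Within 500 bp lay 15 of 16 starved sites at THI20, 8 of 9 at THI21 and all at THI3, THI6 and THI22. Beyond it lay 2 of 3 at THI2 and 1 of 5 at THI80. Insertion direction was mixed, with 38 starved sites in the direction of the gene and 50 opposite to it.

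In complete medium the Thi2 fusion gave no called window among the thiamine synthesis genes. Against the Sir4-free library 0 of 7 tested genes were called by Fisher's exact test, where 0.0188% of 5324 windows were called higher and 0.0376% lower. Of the 7 genes 3 had an unadjusted p under 0.05, as had 386 of all windows. They were THI6 with a ratio of 4.76 (1.57 to 15.9; adjusted p 0.294), THI4 with 3.06 (1.38 to 6.84; adjusted p 0.362) and THI20 with 3.33 (0.958 to 12.0; adjusted p 0.688). The median log2 ratio of the 7 was 1.51, against -0.07 over all windows. THI22, with 1 and 2 sites, was not tested.

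In the starved library 6 of 8 genes were called higher than without Sir4, namely THI3, THI4, THI6, THI20, THI21 and THI22, where 0.481% of 4992 windows were called higher and 0.02% lower. THI2 and THI80 were the exceptions. THI22, with 6 starved and 2 Sir4-free sites, reached the minimum of 5 sites only with its starved sites. The median log2 ratio was 3.49, against -0.16 over all windows. With merged sites 3 of the 6 calls were left, THI4, THI20 and THI21. The starved and the complete-medium comparison share the Sir4-free library, so the direct comparison above is the test of their difference.

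Other genes of thiamine metabolism were followed in a list of 18 entries. Of the 8 with enough sites for a test between the Thi2 libraries, 3 were called higher and 0 lower. Over all 2537 tested windows 0.315% were called higher. These were PDC5 and PDC1, genes of the pyruvate decarboxylases that use thiamine pyrophosphate, and PHO3, a secreted acid phosphatase that frees thiamine from its phosphates. PDC5 had 92 starved and 4 complete-medium sites (ratio 69.9, 26.4 to 262; Fisher's exact test, adjusted p 3.18e-47) and was the first of all windows by p. PDC1 had 53 and 6 (adjusted p 7.02e-23) and PHO3 15 and 7 (adjusted p 0.00912). THI74, which was not on the list, and CDC48, a gene of protein turnover with 10 and 3 sites, were the other two windows called. The thiamine transporter gene THI7 with 14 and 9 sites (adjusted p 0.0596), THI73 with 9 and 3 (0.0665) and PET18 with 7 and 1 (0.0665) were not called. TPC1, the mitochondrial carrier of thiamine pyrophosphate, had 1 and 4 sites, and the transporter gene THI72 had 1 and 5. PDC2, the gene of the other regulator, had 1 and 0. PDC5, THI73, PET18 and TPC1, and outside the list THI74 and CDC48, reached the minimum of 5 sites only with their starved sites. The count of calls in the list includes such genes and is a description.

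The pyrimidine precursor genes THI5, THI11, THI12 and THI13 are near-identical copies close to chromosome ends, and reads at such copies may not be assignable to one of them. Together they had 1 starved site, at THI5, and 0 complete-medium sites. For a window with 0 starved sites the limit used was 0.0327%, the share of 3 sites and not a Clopper-Pearson upper end. That lies above the Sir4-free shares of 0.0101% at THI11, 0.00754% at THI12 and 0.0126% at THI13, and below the starved shares of THI22 and THI3. With the Gcn4 plasmid fusion THI11 was called higher than without Sir4, at 11 against 8 sites (ratio 4.59, 1.68 to 13.1; Fisher's exact test, adjusted p 0.0374), which is uncertain for the same reason. It was the only gene of the list called with a plasmid fusion, of 12, 12 and 13 tested for Gal4, Leu3 and Gcn4. Of all windows 3.06%, 2.45% and 2.89% were called higher in the same order. A single call is near these shares and is no result about the list. No gene of the list was called in the edgeR fit of the pools, where 4.39% of all tests were called higher and 0.727% lower. SNZ2, SNZ3, SNO2 and SNO3, members of gene families linked to vitamin B6 that neighbour the precursor genes, had 0 starved sites and 2, 1, 0 and 0 in complete medium. PDC6, a further pyruvate decarboxylase gene, had 2 and 2. Against the Sir4-free library 6 of 13 tested genes of the list were called higher in the starved library, where 0.481% of 4992 windows were. They were PDC5, PDC1, PHO3, THI73, PET18 and THI7. PHO3 and PET18, with 4 Sir4-free sites each, reached the minimum of 5 sites only with their starved sites. In complete medium 0 of 13 were called, where 0.0188% of 5324 windows were called higher and 0.0376% lower. The window of HTL1, a gene outside the list, had the same 7 starved and 4 Sir4-free sites as that of PET18. The PET18 call may therefore not be particular to PET18.

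**Figure D3:**
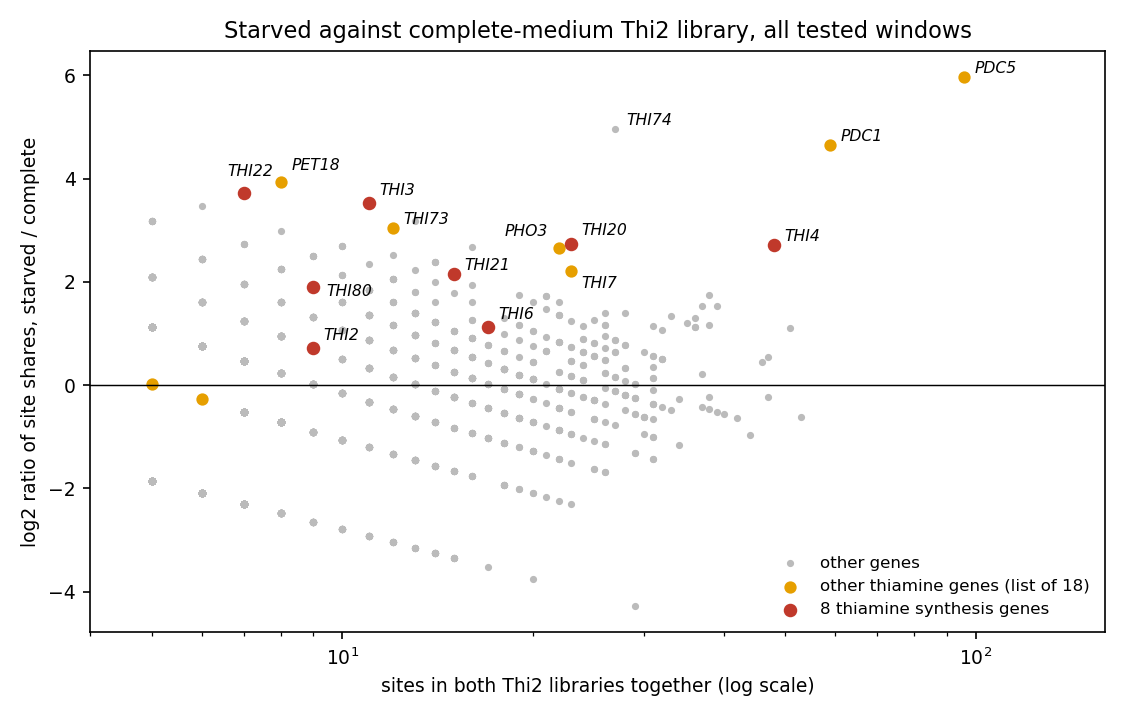
Log2 ratio of site shares, starved over complete-medium Thi2 library (vertical axis), against the sites in both libraries together (horizontal axis, log scale), for all 2537 tested windows, each point 1 gene. The 8 thiamine synthesis genes (red) all lie above 0, from THI2 at 0.71 to THI22 at 3.72, and PDC5 is highest at 5.97.

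With each of the other fusions the 8 windows together held a smaller share than without Sir4. Pooled over the 8 windows the order of the 22 libraries was the starved Thi2 library, then the complete-medium one, then the Sir4-free library at 0.0980%, and the 19 libraries of other fusions ran from 0.0807% (0.0417 to 0.141) in the second Lee1 pool down to 0.0124% (0.00150 to 0.0448) in the first Gal4 pool. The starved interval overlapped that of no other library. Those of complete medium and the Sir4-free library did not overlap either. Below them neighbouring libraries overlapped, and of the 19 libraries only the first Gal4 pool had an interval wholly under the Sir4-free one. Each of the 8 genes had 0 sites in at least 1 of the 19 libraries. The most in any of them was 9 for THI6, 8 for THI2, 8 for THI3, 7 for THI4, 5 for THI20, 4 for THI21, 2 for THI80 and 1 for THI22.

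For the plasmid fusions 0 of 7 tested genes were called in each of the Gal4, Leu3 and Gcn4 libraries against the Sir4-free one. The windows called higher were 3.06%, 2.45% and 2.89% of all tested in the same order, and those called lower 0.326%, 0.0404% and 0.252%. One gene had an unadjusted p under 0.05, THI6 with 4 of the Leu3 sites (ratio 4.98, 1.03 to 21.0; Fisher's exact test, adjusted p 0.556). Of all tested windows 424 of 4902 had such a p for Gal4, 258 of 4948 for Leu3 and 451 of 5152 for Gcn4. THI4 had 0 sites in the Gal4 and Leu3 libraries, where the upper ends of the intervals were 0.0276% and 0.0346%, above its Sir4-free share. In the Gal4 library 47.2% of all sites lay in called windows, and the median log2 ratio over all windows was -1.13, against 0.46 for the 7 tested genes. That 0.46 is the value of THI6 and THI20, each with 1 Gal4 and 6 Sir4-free sites. Their ratio was 0.991 before 0.5 site was added, so the median shows no higher share with Gal4. For Leu3 the medians were -0.47 over all windows and -0.56 for the genes, and for Gcn4 -0.23 and -0.31.

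In the pooled libraries 1 of 48 tests was called, over the 6 genes with at least 10 sites and 8 fusions, where 4.39% of all tests were called higher and 0.727% lower (edgeR quasi-likelihood test of a fusion against the mean over the other 7). By fusion, 3.74% of windows were called higher for Gal4, 4.37% for Kar4, 0.523% for Lee1, 1.91% for Rgm1, 3.82% for Rpi1, 4.81% for Sef1, 10.7% for Sfg1 and 5.23% for Yrm1. Those called lower were 0.423%, 1.09%, 0.845%, 0.866%, 0.483%, 0.0201%, 1.41% and 0.684% in the same order. The call was THI2 with Sef1, a zinc-cluster protein. The 2 Sef1 libraries had 8 sites each at THI2, 0.0545% ± 0.00173 (SD, n = 2). The log2 ratio over the other fusions was 2.11 ± 0.55 (SE back-calculated from the F statistic of the test, edgeR adjusted p 0.00344). The other 7 fusions had mean shares of 0.0101% to 0.0204% there. The Sir4-free share of 0.0339% lay between, and Sef1 was not tested against it. The edgeR call was lost without the first (adjusted p 0.1004) or the second (0.121) Sef1 library. THI3 with Sfg1, at 8 and 2 sites, was near the threshold (log2 2.36 ± 0.89, back-calculated in the same way, edgeR adjusted p 0.0572). THI22 and THI80, with 5 and 5 sites over the 16 libraries, were not tested.

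**Figure D4:**
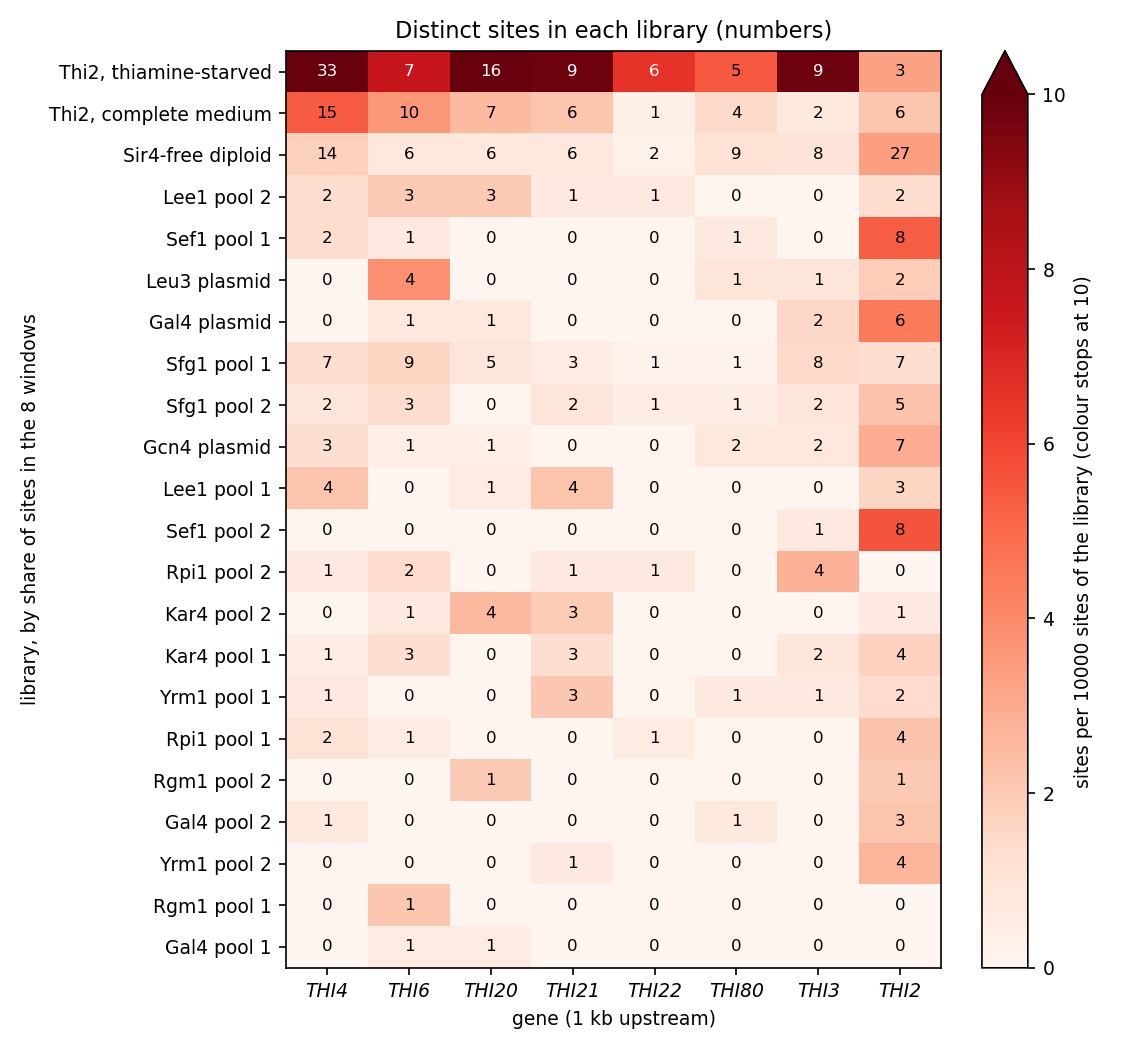
Distinct sites (numbers in cells) upstream of the 8 genes in the 22 libraries, ordered by their pooled share, with colour giving sites per 10000 sites of the library and stopping at 10. In the starved Thi2 row THI4 and THI20 reach the top of the scale, and the THI2 column has 8 sites in each Sef1 pool.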

How the data were processed

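Per the labels' protocols, genomic DNA of pooled colonies was cut with Hinp1I, HpaII or TaqI, self-ligated, amplified by inverse PCR and sequenced on an Illumina GAII. Per the series text, the deposited counts are the authors' raw numbers of reads at each chromosome, position and direction, without normalization. The sources used here do not name the aligner, the build or filters. Lines that repeat a site (4540, all in the Sir4-free library) were joined.

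Windows were the 1 kb upstream of the start codon (RefSeq R64, strand from the systematic name); windows of neighbours overlap and are not independent. Because the build of the files is not named, annotation coordinates are not printed. The displacement was the shift, in steps of 10 bp, with fewest sites inside coding sequences within 75 kb. Single libraries were compared by Fisher's exact test over all windows that held at least 5 sites over the pair. Log2 ratios of these comparisons add 0.5 site. Ratios carry conditional exact intervals. The multiplex libraries were fitted in edgeR 4.0.16 (R 4.3.3, TMM factors 0.702 to 1.58) over 4968 windows with at least 10 sites, with a biological coefficient of variation of 0.0875 and 8 residual degrees of freedom. DESeq2 1.42.0 was an alternative. Fisher tests ran in scipy 1.17.1 with numpy 2.4.6 and pandas 2.3.3 (Python 3.11.15), and plots in matplotlib 3.10.9. The tests were tried on simulated data.

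Replicate numbers are pool numbers, per the series text. Deviations of fusions in 1 pool correlated with a median of 0.0776 over 28 pairs (-0.0356 to 0.184), 10 of them above 0.1.

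The genes, lists and tests were chosen with earlier results of these data known. All 8 genes, the 18 others, overlapping neighbours and the 5 genes most alike across libraries were named.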

Additional observations from a re-analysis of the deposited data

How the results depend on the processing

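Each comparison was repeated with 500-bp windows, windows shifted 60 bp either way, at least 2 or 5 reads per site, direction ignored, other minimums of sites, and totals without called windows. Merging sites within 5 bp and leaving out sites in both Thi2 libraries were added after seeing the data. Starved against complete, 2 to 3 of the 8 genes were called under every alternative, against 3, and THI20 was called under all 11 (adjusted p 0.000416 to 0.0252). Over all genes the 8 calls became 14 with at least 5 reads, 5 with merged sites and 13 with at least 10 sites. Starved against Sir4-free, the 6 called genes became 3 and the 25 called windows 15 with merged sites, with 5 or 6 genes otherwise. THI20 and THI21 were called under all 11. Complete against Sir4-free, 0 of the genes were called throughout, and the 3 called windows became 0 with 500-bp windows, at least 2 reads, at least 5 reads or merged sites, and 1 with the upstream shift. The plasmid fusions gave 0 throughout. In the pools the 1 call became 2 with 500-bp windows, at least 5 reads or merged sites (THI3 with Sfg1, adjusted p 0.0464, 0.0427 and 0.0480), 0 without replicate 1 and 0 without replicate 2. It stayed 1 with the pool as a replicate block (THI2 with Sef1, adjusted p 0.00409), with DESeq2 size factors (0.00105) and with the DESeq2 Wald test (0.0224). No direction of a called gene was reversed. The cause of these changes was not tested. Most genes had under 10 sites per library, which limits the precision.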

Other observations

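The genes outside the lists whose site shares over the 22 libraries were most like those of the 8 windows together were THI74, SSL1, OLA1, DBF2 and PML39, with Pearson's r of 0.746, 0.745, 0.723, 0.720 and 0.704 among 4854 genes with at least 20 sites. The libraries differ in depth, and the starved library stands apart in the 8 windows, so these values are a description only. THI74, the gene of a mitochondrial transporter that thiamine represses, had 25 starved, 2 complete-medium and 3 Sir4-free sites (Fisher's exact test, starved against complete, adjusted p 1.16e-10). SSL1, a gene of a transcription and repair factor, had 9, 5 and 6 sites in the same order, and OLA1 had 11, 5 and 19.

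Reads per site also differed. The 88 starved sites at the thiamine synthesis genes had a median of 66 reads, against 11 over the whole starved library, and they took 0.878% of its reads. The 51 complete-medium sites had a median of 11 reads, against 25 over that library, and took 0.0803%. At THI6 a single starved site had 8504 of the 8767 reads. Of all sites 644 were listed in both Thi2 libraries, which is 7.02% of the starved and 2.31% of the complete-medium sites. At the 8 genes 5 were shared, 5.68% and 9.80%. Merging sites within 5 bp left 84.9% of the starved sites, 87.7% of the complete-medium sites and 88.9% of the Sir4-free sites over the genome. Starved counts at the called genes fell from 33 to 18 at THI4, 16 to 13 at THI20 and 9 to 7 at THI3. They fell from 9 to 8 at THI21, 7 to 6 at THI6 and 6 to 4 at THI22. Complete-medium counts fell from 15 to 12 at THI4 and 7 to 6 at THI20, and stayed at 2 at THI3.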
